A study of Mus musculus with 10 samples.

Results

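Described here are 8 genes of hepatic drug metabolism, of 21939 genes in the deposited table: the cytochrome P450 genes Cyp2a4, Cyp2a5, Cyp2a22, Cyp2b9, Cyp2b10 and Cyp2b13, Nr1i3, which encodes the nuclear receptor CAR, and Por, which encodes cytochrome P450 oxidoreductase. The 8 genes were chosen by their measured differences between the genotypes in these same libraries, so their levels are a description and carry no test. RNA was sequenced from freshly isolated hepatocytes of 10 male mice on a C57BL/6J background, 12 days after injection of AAV8Cre. The mice are given as 8 to 9 weeks old without saying whether at injection or at isolation. For mice treated with carbon tetrachloride 12 days after induction, the methods state an older age. AAV8Cre is an adeno-associated virus whose Cre is driven by the thyroxine-binding globulin promoter and thus directed to hepatocytes. All mice received the virus, the controls included. The control group was wild type without floxed alleles (n = 3), and the others carried floxed Nrf2 (Nrf2 KO, n = 2), floxed p65 (p65 KO, n = 2) or both (Nrf2:p65 DKO, n = 3). Each library came from 1 mouse, and the question was how loss of the transcription factors Nrf2 and NF-κB p65 affects hepatocytes, alone and together. Total counts ranged from 33707165 in p65 KO 1 to 49897382 in Nrf2 KO 2. Normalized counts below are estimated counts divided by each library's relative TMM-scaled size, and 3 counts in a library is taken as the floor of detection, which covers counting error only.

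CAR binds DNA with RXR and activates P450 genes in response to drugs and bile acid metabolites. The Cyp2a and Cyp2b enzymes oxidize steroids, nicotine, coumarin and many drugs, and P450 oxidoreductase passes them electrons from NADPH. In mouse liver several of these genes, Cyp2a4, Cyp2b9 and Cyp2b13 among them, are known to be higher in females.

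The targeted genes were examined first. Nfe2l2, which encodes Nrf2, had 2318, 1991 and 1990.2 normalized counts in the control libraries, 4739 and 5005 in the libraries labelled Nrf2 KO, 1993 and 1997 in those labelled p65 KO, and 4111, 3434 and 5240 in those labelled DKO. Both groups with floxed Nrf2 thus had more Nfe2l2 counts than the controls (log2 fold change 1.21 ± 0.16 SE in Nrf2 KO, edgeR adjusted p = 0.00488, both libraries above all controls), a call lost without Nrf2 KO 2 (1.17 to 1.29 over the libraries left out in turn). In DKO the log2 fold change was 1.02 ± 0.14 (edgeR adjusted p = 0.00347, all libraries above the controls), a call lost without control 2 or 3 or DKO 3 (0.85 to 1.15). Gene totals include reads outside a deleted exon and do not check the deletion. Rela, which encodes p65, was within 1034 to 1488 normalized counts in all 10 libraries, and its log2 fold change was -0.07 ± 0.14 in p65 KO (edgeR adjusted p = 0.765). Gclc, a glutathione synthesis gene, fell in Nrf2 KO (log2 fold change -1.21 ± 0.19, edgeR adjusted p = 0.0179) and p65 KO (-1.33 ± 0.19, adjusted p = 0.00281), and most in DKO (-2.20 ± 0.17, adjusted p = 0.00012). The first of these calls was lost without control 1 or 2 or either Nrf2 KO library (-1.35 to -1.06). Saa3, an acute phase gene, fell in p65 KO (log2 fold change -2.99 ± 0.47, edgeR adjusted p = 0.00391) and in DKO (-2.57 ± 0.40, adjusted p = 0.00565). Nqo1, a quinone reductase gene, fell in DKO (log2 fold change -1.35 ± 0.25, edgeR adjusted p = 0.0126), a call lost without control 1 (-1.63 to -1.14 over the libraries left out), and had a log2 fold change of -1.40 ± 0.28 in Nrf2 KO that missed the threshold (adjusted p = 0.0561).

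Cyp2a4, a steroid 15α-hydroxylase gene, had few counts in control and Nrf2 KO hepatocytes and far more in p65 KO. It had 8.83, 4.92 and 47.6 normalized counts in the controls, 2.97 and 0.808 in Nrf2 KO, 18096 and 17985 in p65 KO, and 1648, 5039 and 11.4 in DKO. Both p65 KO libraries were above every other library, and Nrf2 KO was at or under the floor of 3 counts, so no fold is given for it. DKO was divided: libraries 1 and 2 were far above the controls, while DKO 3 lay within their range. The log2 fold change against control was 9.73 ± 1.62 SE in p65 KO and 6.72 ± 1.47 in DKO. Leaving out each library in turn moved the p65 KO value between 9.26 and 11.35 and the DKO value between 5.29 (without DKO 2) and 8.34, the highest of both without control 3. The order was p65 KO, DKO, control and Nrf2 KO, with overlap between DKO and control.

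Cyp2a5, a coumarin 7-hydroxylase gene, was abundant in all groups. It had 10066, 4659 and 5153 normalized counts in the controls, 1059 and 1897 in Nrf2 KO, 28927 and 36009 in p65 KO, and 2149, 2538 and 9577 in DKO. Nrf2 KO lay below all controls and p65 KO above them, whereas DKO overlapped the controls. The log2 fold change against control was -2.16 ± 0.63 SE for Nrf2 KO, 2.29 ± 0.57 for p65 KO and -0.48 ± 0.51 for DKO. DKO 3, the library without raised Cyp2a4, had the highest Cyp2a5 of the DKO libraries, and without it the log2 fold change in DKO was -1.50, against -0.045 without control 1, -0.13 without DKO 1 and -0.18 without DKO 2. The comparisons with control share the same 3 control libraries.

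Cyp2a22 had few counts in every library, at most 14 (p65 KO 2), and its libraries overlapped between all genotypes that are neighbours in the order of means.

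The proteins of Cyp2a4 and Cyp2a5, both of 494 residues, are identical at 482 positions (97.6%), and 183 of the 1639 windows of 100 bases in the Cyp2a4 transcript also occur in the Cyp2a5 transcript (11.2%), so reads could be divided wrongly between them. Their sum does not depend on that division. It was 10075, 4664 and 5201 normalized counts in the controls, 1062 and 1898 in Nrf2 KO, 47023 and 53995 in p65 KO, and 3797, 7577 and 9589 in DKO. The log2 fold change of the sum was -2.17 ± 0.44 SE for Nrf2 KO, 2.93 ± 0.41 for p65 KO and 0.07 ± 0.36 for DKO. Cyp2a4 made up 38.5% and 33.3% of the sum in p65 KO, and 43.4%, 66.5% and 0.119% in DKO, against at most 0.916% in the controls and 0.279% in Nrf2 KO.

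Cyp2b10, the best known CAR target, had 32.0, 52.1 and 107 normalized counts in the controls, 24.7 and 32.3 in Nrf2 KO, 239 and 138 in p65 KO, and 61.0, 129 and 121 in DKO. Both p65 KO libraries were above all controls and all DKO libraries, while control overlapped both DKO and Nrf2 KO. The log2 fold change against control was -1.16 ± 0.53 SE for Nrf2 KO, 1.55 ± 0.47 for p65 KO and 0.69 ± 0.44 for DKO. Without control 3, the highest of the controls, it was -0.56 for Nrf2 KO, 2.15 for p65 KO and 1.30 for DKO. Without control 1 it was 0.38 for DKO, and without p65 KO 1 it was 1.1 for p65 KO.

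Cyp2b9 had at most 9 counts in a library, with overlap between all neighbours in the order of means. Cyp2b13 was at 0 in all control and Nrf2 KO libraries, had 13 and 7 counts in p65 KO, and 2, 2 and 0 in DKO. Its mean in p65 KO was at least 3.28-fold higher than control, taking the floor of 3 counts in each control library. The proteins of Cyp2b9 and Cyp2b13 are 90.2% identical, and 21 of 1778 windows of 100 bases of Cyp2b9 occur in Cyp2b13. The sum of Cyp2b9, Cyp2b10 and Cyp2b13 had a log2 fold change of -0.94 ± 0.53 SE for Nrf2 KO, 1.56 ± 0.49 for p65 KO and 0.68 ± 0.45 for DKO.

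Nr1i3 was lower in both groups with floxed Nrf2 than in the controls. It had 4301, 4522 and 4679 normalized counts in the controls, 1966 and 1892 in Nrf2 KO, 6446 and 5794 in p65 KO, and 1329, 1384 and 2148 in DKO. All p65 KO libraries were above the controls, all controls were above Nrf2 KO, and Nrf2 KO overlapped DKO. The log2 fold change against control was -1.22 ± 0.19 SE for Nrf2 KO, 0.44 ± 0.18 for p65 KO and -1.47 ± 0.17 for DKO. Nr1i3 was thus low in DKO while Cyp2b10 in DKO overlapped the controls.

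Por was higher in both groups with floxed p65. It had 5487, 4520.5 and 6088 normalized counts in the controls, 4388 and 5117 in Nrf2 KO, 12138 and 17875 in p65 KO, and 6498, 8346 and 13582 in DKO. Every p65 KO and DKO library was above every control, and p65 KO and DKO overlapped. The log2 fold change against control was -0.17 ± 0.28 SE for Nrf2 KO, 1.48 ± 0.27 for p65 KO and 0.82 ± 0.25 for DKO. Without DKO 3, the highest of its group, it was 0.47 in DKO, and in Nrf2 KO it ran from -0.29 to -0.07 over the libraries left out in turn.

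Per kilobase of the longest transcript, the levels in control were 3261 normalized counts for Cyp2a5, 1826 for Por, 1044 for Nr1i3, 32.8 for Cyp2b10 and 11.8 for Cyp2a4. In p65 KO they were 15979 for Cyp2a5, 10380 for Cyp2a4, 5108 for Por, 1419 for Nr1i3 and 96.8 for Cyp2b10. With the median transcript length in place of the longest, Cyp2a5 had 7387 in control and Nr1i3 had 2004.

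**Figure D1:**
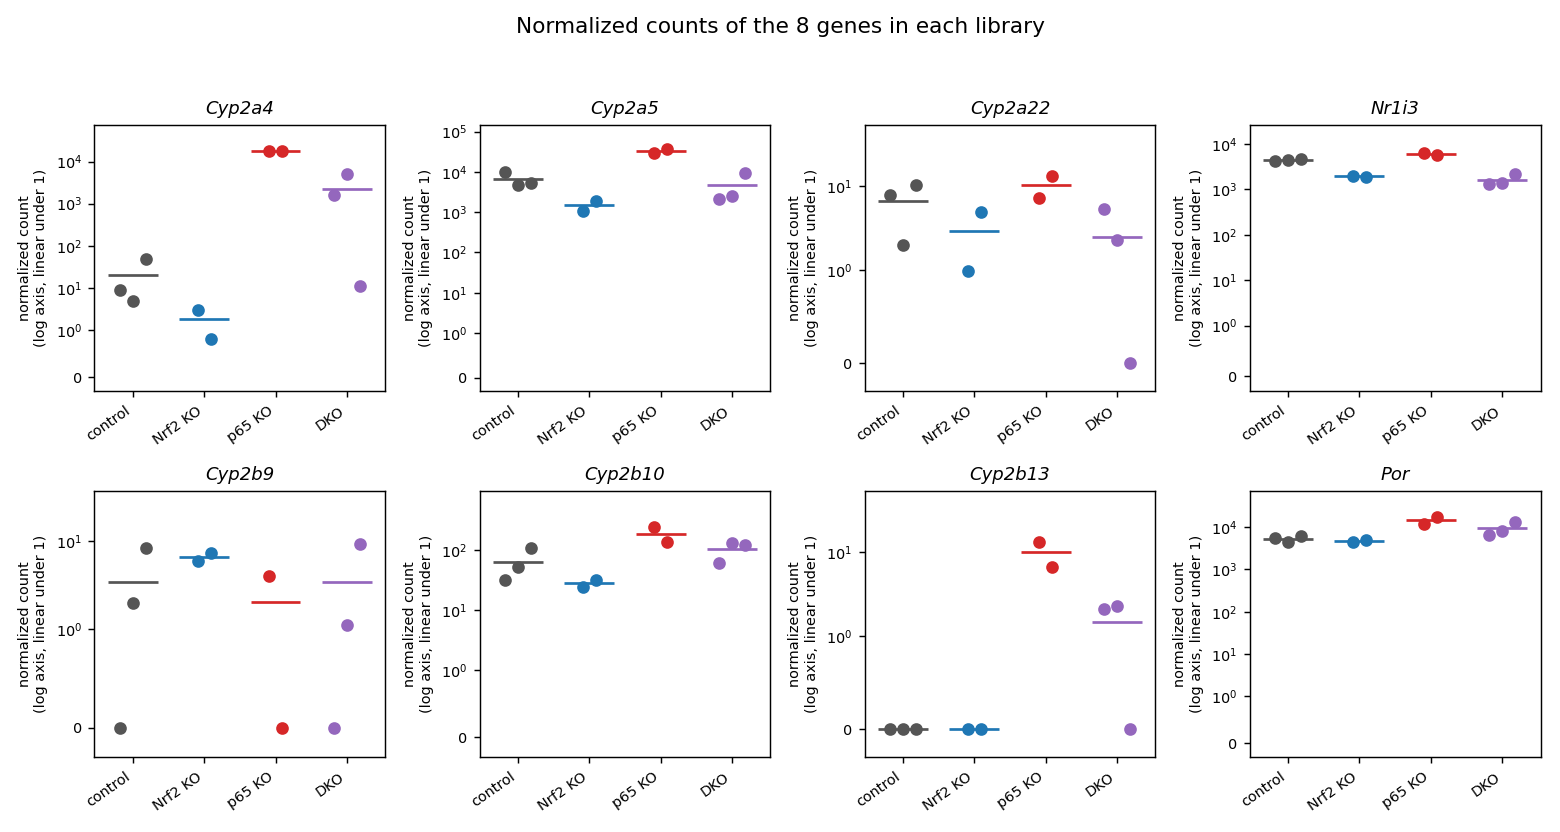
Each point is the normalized count of a library, grouped by genotype on the horizontal axis, with the vertical axis logarithmic above 1 and linear below it, and the line is the group mean. Cyp2a4 is at 17985 and 18096 in p65 KO, while DKO 3, at 11.4, lies with the controls.

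The 6 Cyp2 genes lie in 1 cluster on chromosome 7 (GRCm39), between 25501895 and 26858093, with 16 genes and pseudogenes. Cyp2b10 is at chr7:25597045-25626049, Cyp2b13 at chr7:25760922-25795622, Cyp2b9 at chr7:25872835-25910086, Cyp2a4 at chr7:26006594-26014513 and Cyp2a5 at chr7:26534730-26542973, all on the plus strand with 9 exons, and Cyp2a22 at chr7:26631056-26638809 on the minus strand. Nr1i3 is at chr1:171041506-171048270 and Por at chr5:135698887-135764182, both on the plus strand. Of 8 other genes listed for the cluster 3 passed the filter, and edgeR called 0 of them in Nrf2 KO, p65 KO or DKO against control, as did DESeq2, with 2, 2 and 0 of them at an unadjusted p under 0.05. All 3 are given here, and their names were chosen after their values were seen. Cyp2f2, the most abundant, had a log2 fold change of -0.49 ± 0.20 SE for Nrf2 KO, -0.46 ± 0.20 for p65 KO and 0.21 ± 0.18 for DKO. Cyp2a12, a neighbour of the same subfamily, had -0.24 ± 0.15, -0.18 ± 0.15 and 0.25 ± 0.13. Cyp2g1 was low, with 19.9, 11.8 and 35.5 normalized counts in the controls, 8.90 and 3.23 in Nrf2 KO, 61.0 and 87.0 in p65 KO, and 35.8, 14.6 and 76.7 in DKO. Like Cyp2a5, it thus lay below all controls in Nrf2 KO and above them in p65 KO. In DKO the genes differed: Cyp2g1 was above all controls in DKO 1 and DKO 3, Cyp2a5 below them in DKO 1 and DKO 2. The log2 fold changes of Cyp2g1 were -1.90 ± 0.80, 1.71 ± 0.66 and 0.91 ± 0.61 for Nrf2 KO, p65 KO and DKO. None of them was called (edgeR adjusted p = 0.486, 0.102 and 0.403).

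The regions upstream of Cyp2a4 and Cyp2a5 are nearly the same although the levels of the genes differ by genotype in different ways. Over 240 aligned bases before the start, 235 were identical (97.9%). The stretches below are shown for that reason, both on the plus strand of GRCm39, with the differing bases in capitals (T64C, G94A and G138T, positions from 1 at the 5′ end of the stretch, Cyp2a4 base first). They are chr7:26006434-26006583 for Cyp2a4 and chr7:26534580-26534729 for Cyp2a5.
Cyp2a4: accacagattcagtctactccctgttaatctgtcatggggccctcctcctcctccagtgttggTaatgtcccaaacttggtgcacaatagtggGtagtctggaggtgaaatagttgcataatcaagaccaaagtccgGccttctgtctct
Cyp2a5: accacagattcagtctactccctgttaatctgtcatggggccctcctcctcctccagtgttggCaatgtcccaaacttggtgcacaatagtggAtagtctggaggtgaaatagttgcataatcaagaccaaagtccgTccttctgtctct
The windows from 250 bases before to 50 after the start were searched on both strands for the D-box TTANGTAA, the E-box CACGTG, the antioxidant response element TGACNNNGC, the kB motif, the nuclear receptor core motif AGGTCA and a looser direct repeat of it, the STAT5 motif TTCNNNGAA and the HNF4 motif CAAAGTCCA. The E-box CACGTG was found upstream of Nr1i3, and AGGTCA upstream of Cyp2b9 and Cyp2b13, whose upstream regions are 99.2% identical. These motifs occur in 7.89% and 15.1% of 21453 promoters. The other windows held none of these letters, which says nothing about the factors.

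Genes with known links to CAR were read from lists, a gene being called up or down when its adjusted p was 0.05 or less and its mean changed by 1 log2 unit or more. In Nrf2 KO against control 0.11% of 13641 genes rose and 0.44% fell. In p65 KO 5.05% rose and 1.54% fell, and in DKO 1.36% rose and 1.02% fell. The median log2 fold change of all genes was 0.00185, 0.000896 and 0.0246. Of 17 other CAR target genes 3 fell in Nrf2 KO and none rose, with a median log2 fold change of -0.44. Ephx1, microsomal epoxide hydrolase, fell in Nrf2 KO (log2 fold change -1.96 ± 0.21 SE, edgeR adjusted p = 0.00141, both libraries below all controls). Abcc3, a conjugate export pump, also fell (-4.13 ± 0.71, edgeR adjusted p = 0.0253, both libraries), as did Alas1, the first enzyme of heme synthesis (-2.53 ± 0.47, edgeR adjusted p = 0.0412, both libraries). The call of Abcc3 was lost on leaving out any 1 of the control or p65 KO libraries (log2 fold change -6.24 to -3.30 over the libraries left out in turn). That of Alas1 was lost without control 1 or 2, DKO 3, or any Nrf2 KO or p65 KO library (-2.87 to -2.16). In DKO 4 of the 17 fell and none rose, with a median of -0.51. Abcc3 (log2 fold change -4.45 ± 0.60 SE, edgeR adjusted p = 0.00304) and Ephx1 (-2.00 ± 0.18, adjusted p = 0.000288) fell in 3 of 3 libraries each, and both calls were kept whichever library was left out. Cyp2c37 (-1.12 ± 0.23, edgeR adjusted p = 0.0216) and Aldh1a1 (-1.07 ± 0.24, adjusted p = 0.0301) were called too, but each call was lost without control 1 or 2 or DKO 1 or 2 (-1.50 to -0.93 and -1.42 to -0.86). In p65 KO 1 of the 17 rose and 1 fell, with a median of -0.18. Slco1a4, an organic anion carrier, rose (log2 fold change 1.19 ± 0.33 SE, edgeR adjusted p = 0.0373) and Cyp3a11, an abundant drug-metabolizing P450, fell (-1.05 ± 0.26, adjusted p = 0.0242). The first call was lost without control 1 or 2 or any Nrf2 KO or p65 KO library (0.87 to 1.53), and the second without control 1 or 2 or either p65 KO library (-1.23 to -0.89). In p65 KO 6 of the 17 had an unadjusted p under 0.05. Ephx1 (-0.98 ± 0.20, edgeR adjusted p = 0.0109) and Ces2a (-0.51 ± 0.13, adjusted p = 0.0241) were below all controls there. Cyp1a2 was above them (0.96 ± 0.26, edgeR adjusted p = 0.0318), and these 3 were short of the fold threshold. Ephx1 and Abcc3 are also known as Nrf2 targets.

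Of 18 CAR partners and regulators, 1 was called in p65 KO, Nr0b2, the corepressor SHP, which fell (log2 fold change -1.16 ± 0.30 SE, edgeR adjusted p = 0.0266), a call lost without control 1 or 3 or either p65 KO library (-1.37 to -0.98). In p65 KO 5.05% of all genes rose and 1.54% fell, and 6 of the 18 had an unadjusted p under 0.05. Med1 (0.70 ± 0.17, edgeR adjusted p = 0.0198), Hnf4a (0.46 ± 0.11, adjusted p = 0.0222) and Rxra (0.49 ± 0.15, adjusted p = 0.0492) were above all controls there. Hsp90aa1 was below them (-0.90 ± 0.24, edgeR adjusted p = 0.0339), and these genes were all short of the fold threshold. Of 14 genes of P450 electron transfer and heme supply, Alas1 fell in Nrf2 KO, as above, and Hmox1, heme oxygenase, rose in p65 KO (log2 fold change 1.44 ± 0.19 SE, edgeR adjusted p = 0.00198, both libraries above all controls).

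The Nrf2 target list was read in the same way. In Nrf2 KO 7 of 12 fell and none rose, with a median log2 fold change of -1.36, and in DKO 8 of 12 fell, with a median of -1.41. Gstm1, a glutathione transferase, fell in Nrf2 KO (log2 fold change -2.96 ± 0.22 SE, edgeR adjusted p = 0.000219) and DKO (-3.27 ± 0.19, adjusted p = 2.43e-05), in every library of both groups. Gsta2 also fell in Nrf2 KO (-2.36 ± 0.24, edgeR adjusted p = 0.000999) and DKO (-2.57 ± 0.21, adjusted p = 0.000126), and these calls of Gstm1 and Gsta2 were kept whichever library was left out. Gsta1, a close paralog of Gsta2, fell in Nrf2 KO (-4.38 ± 0.64, edgeR adjusted p = 0.0122) and DKO (-5.13 ± 0.59, adjusted p = 0.00133), as did Gstm3 (-2.97 ± 0.41, adjusted p = 0.00921, and -2.31 ± 0.34, adjusted p = 0.00461). In Nrf2 KO the call of Gsta1 was lost without control 1 or either Nrf2 KO library (-5.10 to -3.86) and that of Gstm3 without either Nrf2 KO library (-3.38 to -2.64). Ugdh, which makes the sugar donor for glucuronidation, fell in Nrf2 KO (-1.57 ± 0.25, edgeR adjusted p = 0.0175), a call lost without control 2 or either Nrf2 KO library (-1.75 to -1.31). In p65 KO 1 of 12 fell, Gclc, as above, with a median of -0.36 and 5 of 12 at an unadjusted p under 0.05. Srxn1, an antioxidant enzyme gene (-0.77 ± 0.17, edgeR adjusted p = 0.0157), and Gstm1 (-0.71 ± 0.20, adjusted p = 0.0379) were below all controls in p65 KO but short of the fold threshold. Of 12 NF-κB target genes 2 rose and 1 fell in p65 KO. Saa3 fell, as above, and Lcn2, an iron-carrier binding protein, rose in p65 KO (log2 fold change 2.67 ± 0.42 SE, edgeR adjusted p = 0.00361) and in DKO (3.16 ± 0.39, adjusted p = 0.00189). Cxcl1 rose in p65 KO (1.69 ± 0.45, edgeR adjusted p = 0.03), but the call was lost without any control library or without p65 KO 1 (0.35 to 2.38).

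Genes of the PAR bZIP family and core clock, of which Dbp, Tef and Hlf are known regulators of Cyp2a and Nr1i3, were read next. In Nrf2 KO edgeR called 0 of 17, as did DESeq2, with 4 at an unadjusted p under 0.05. In p65 KO 10 of 17 rose and 4 fell, with a median log2 fold change of 1.20. In DKO 5 rose and 2 fell, with a median of 0.71. In DKO against Nrf2 KO edgeR called 0 of 17 and DESeq2 4, with 7 at an unadjusted p under 0.05. Dbp had 45.3, 54.1 and 426 normalized counts in the controls, 87.0 and 1719 in Nrf2 KO, 3627 and 3589 in p65 KO, and 1271, 1621 and 2437 in DKO. The control and Nrf2 KO libraries were thus spread widely, and control 3 and Nrf2 KO 2 stood apart. In p65 KO Dbp rose (log2 fold change 4.35 ± 1.05 SE, edgeR adjusted p = 0.0213), a call lost without control 1 or 2 or either p65 KO library (3.91 to 6.17). Tef rose in p65 KO (2.50 ± 0.43, edgeR adjusted p = 0.0057) and in DKO (1.62 ± 0.40, adjusted p = 0.0408). Hlf rose in p65 KO (1.20 ± 0.19, edgeR adjusted p = 0.00391). Dbp (3.32 ± 0.97, edgeR adjusted p = 0.0747) and Hlf (0.48 ± 0.17, adjusted p = 0.135) were not called in DKO. The calls of Tef and Hlf over the libraries left out are not given here. Ciart rose in p65 KO (5.57 ± 0.88, edgeR adjusted p = 0.00391) and Bmal1 fell (-4.93 ± 0.56, adjusted p = 0.000914), calls kept whichever library was left out. In DKO Per2 rose (2.18 ± 0.26, edgeR adjusted p = 0.00171) and Bmal1 fell (-2.16 ± 0.39, adjusted p = 0.0121). Npas2, a paralog of Clock, fell in p65 KO (-5.24 ± 1.31, edgeR adjusted p = 0.0249) and in DKO (-4.60 ± 1.05, adjusted p = 0.0304), the first call lost without control 2 or either p65 KO library (-7.48 to -3.99) and the second without control 1 or 2 or any DKO library (-5.06 to -3.36). Bhlhe41, a clock repressor, rose in p65 KO (4.41 ± 0.93, edgeR adjusted p = 0.0136), a call lost without control 1 or p65 KO 1 (3.34 to 5.02). Ciart (3.64 ± 0.84, edgeR adjusted p = 0.031) and Per3 (2.98 ± 0.52, adjusted p = 0.0111) rose in DKO, the first call lost without any control library or DKO 3 (2.38 to 4.13) and the second without control 1 (2.58 to 3.21). Bmal1 is a clock activator whose own transcript peaks opposite to Per2. The mice were killed in the morning, the hour for each is not given in the sources used here, and its part in these levels was not tested.

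Of 11 tested female-biased liver genes 1 rose and 1 fell in p65 KO, and 1 rose and 2 fell in DKO. Cux2 was called up in p65 KO (edgeR adjusted p = 0.0421) at 32.5 and 15.1 normalized counts against 3.31, 0 and 1.87 in the controls, all at or under the floor, and the call was lost without any 1 of the control, Nrf2 KO or p65 KO libraries. Cyp17a1, a steroid hydroxylase, rose in DKO (log2 fold change 3.37 ± 0.46 SE, edgeR adjusted p = 0.00326). Cyp4a14, a fatty acid hydroxylase, fell in p65 KO (-4.66 ± 1.04, edgeR adjusted p = 0.0166) and in DKO (-4.22 ± 0.86, adjusted p = 0.0208), the first call lost without either p65 KO library (-4.91 to -4.13) and the second without DKO 2 (-5.55 to -3.68). Abcd2, a peroxisomal fatty acid transporter, fell in DKO (-1.91 ± 0.44, edgeR adjusted p = 0.0301), a call lost without control 2 or 3 or DKO 2 or 3 (-2.69 to -1.55).

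Of 14 male-biased genes 1 fell in Nrf2 KO and 4 fell in p65 KO, and in DKO 4 fell and 2 rose. Elovl3, a fatty acid elongase, fell in p65 KO (log2 fold change -3.48 ± 0.52 SE, edgeR adjusted p = 0.00293) and in DKO (-1.67 ± 0.40, adjusted p = 0.0386), the second call lost without control 1 or 2, DKO 2 or 3 or either p65 KO library (-2.10 to -1.45). Cyp4a12b fell in Nrf2 KO (-1.95 ± 0.28, adjusted p = 0.00949) and in DKO (-1.76 ± 0.24, edgeR adjusted p = 0.00292), the first call lost without either Nrf2 KO library (-2.05 to -1.90), and reads can be divided between it and Cyp4a12a. In p65 KO Cyp4a12b (-1.27 ± 0.27, edgeR adjusted p = 0.0131) and Cyp4a12a (-1.15 ± 0.27, adjusted p = 0.02) fell, the first call lost without p65 KO 1 (-1.82 to -0.87) and the second without control 1 or p65 KO 1 (-1.69 to -0.75). Hsd3b5, a steroid dehydrogenase, fell in DKO (-1.37 ± 0.18, edgeR adjusted p = 0.00259). Moxd1 was called up in DKO (edgeR adjusted p = 0.0212) at 174, 8.98 and 21.7 normalized counts against at most 0.934 in the controls, which are under the floor, and the call was lost without any control library or DKO 1. Mup20 fell in p65 KO (-1.70 ± 0.33, edgeR adjusted p = 0.0096), a call lost without p65 KO 1 (-1.95 to -1.46). Mup7, of the near-identical major urinary protein genes, rose in DKO (1.51 ± 0.21, edgeR adjusted p = 0.00375).

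Between the knockouts, 0.814% of genes rose and 0.968% fell in DKO against p65 KO, and 0.293% rose and 0.139% fell in DKO against Nrf2 KO. Cyp2a5 in DKO was below p65 KO in all libraries (log2 fold change -2.77 ± 0.58 SE) and above Nrf2 KO in all libraries (1.68 ± 0.61). Nr1i3 in DKO was below p65 KO (-1.92 ± 0.18) and overlapped Nrf2 KO (-0.25 ± 0.18).

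The genes most like each member were taken by Pearson's r of log2(normalized count + 1) over the 10 libraries, among 10185 genes whose mean was 50 normalized counts or more. These libraries fall into 4 genotypes, and r is a description. Nearest to Cyp2a4 were Sae1 (r = 0.957), Exoc3l2 (0.953) and Igfbp7 (0.952). Sae1 had 592, 594 and 590.2 normalized counts in the controls, 573 and 568 in Nrf2 KO, 1340 and 1130.4 in p65 KO, and 1234, 1120 and 624 in DKO. Sae1, like Cyp2a4, was thus high in p65 KO and in DKO 1 and DKO 2, and in DKO 3 near the controls. Sae1 (chr7:16054152-16121791) and Exoc3l2 (chr7:19196973-19231787) lie on the chromosome of Cyp2a4, which holds 7.46% of the genes compared. The same chromosome holds Ikzf5 (chr7:130989900-131012250) and 2610021A01Rik (chr7:41239821-41280311), given below among the genes nearest to Cyp2b10 and Por. These did not show the split of Cyp2a4, and DKO 3 was the highest of its group in both. In DKO 1, DKO 2 and DKO 3 Ikzf5 had 232, 269 and 275 normalized counts, and 2610021A01Rik 185, 209 and 249. The study's methods give all mice the same strain background. In Nfe2l2, Gclc, Nqo1 and Saa3 DKO 3 was on the same side of the controls as DKO 1 and DKO 2. It had 5240 normalized counts of Nfe2l2 and 4600 of Gclc (18703 to 27771 in the controls). It had 103 of Nqo1 (181 to 218 in the controls) and 14.9 of Saa3 (92.4 to 230 in the controls). In Rela the DKO libraries shared no side of the controls (1221 to 1276 normalized counts). DKO 1 was above them at 1488, DKO 2 among them at 1241 and DKO 3 below them at 1034. Whether DKO 3 differs from DKO 1 and DKO 2 in genotype or strain background was not tested. Nearest to Cyp2a5 were Susd1 (0.966), Myo1c (0.955) and Inhbe (0.951), and to Cyp2b10 Zfp9 (0.945), Ikzf5 (0.935) and Ttc9c (0.930). Nearest to Nr1i3 were Mlec (0.988), Ces1g (0.981) and Ces1b (0.980), and to Por Usp2 (0.962), 2610021A01Rik (0.960) and Ciart (0.953).

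Markers of Kupffer, endothelial and stellate cells were highest in p65 KO. Of 12 Kupffer cell and macrophage markers all 12 rose in p65 KO and 6 in DKO. Their summed normalized counts were 428, 1068 and 818 in the controls, 916 and 308 in Nrf2 KO, 6491 and 4814 in p65 KO, and 3195, 2246 and 1833 in DKO. Cd5l was the most abundant of them. All 6 sinusoidal endothelial markers rose in p65 KO and 1 in DKO, with sums of 3149 and 2266 in p65 KO and 1441, 1584 and 1127 in DKO against 456, 787 and 1019 in the controls and 1179 and 584 in Nrf2 KO. Of 6 stellate cell markers 5 rose in p65 KO and 1 in DKO, with sums of 1468 and 1500.0 in p65 KO and 257, 651 and 252 in DKO against 147, 132 and 332 in the controls and 205 and 132 in Nrf2 KO. Every DKO library was thus above all controls for the Kupffer and endothelial sums, and for the stellate sum only DKO 2. Clec4g and Dcn were their most abundant genes. Of 10 pericentral hepatocyte markers, led by Cyp2e1, 5 rose in p65 KO. Their sums were 117869, 123362 and 128662 in the controls, 134889 and 160544 in Nrf2 KO, 189613 and 230454 in p65 KO, and 90949, 77838 and 137918 in DKO, so DKO 1 and DKO 2 lay below all controls and DKO 3 above them, while DKO 3 also had the highest Cyp2a5 of its group. The Nrf2 KO libraries were above all controls in this sum too, and below all controls in Cyp2a5. Cyp2e1 made up most of the sum (96260 of 117869 in control 1), and no link of the sum to Cyp2a5 was tested. Of 9 periportal markers, led by Ass1, 1 fell in p65 KO and 1 rose in DKO. Their sums were 336455, 261290 and 397169 in the controls, 366439 and 331044 in Nrf2 KO, 325411 and 306564 in p65 KO, and 483301, 621012 and 443823 in DKO, every DKO library being above all controls. Erythroid marker sums, led by Hbb-bs, were 1141 in DKO 1 and at most 402 in the other libraries. T and NK cell, B cell and neutrophil markers, led by Klrb1c, Cd79b and S100a9, had low sums. The T and NK cell sums were 18.3 and 14.2 in p65 KO and 20.0, 11.2 and 5.72 in DKO, against at most 1.97 in the controls and 2.42 in Nrf2 KO. The neutrophil sums were 24.2, 33.7 and 8.01 in DKO and 16.3 and 1.89 in p65 KO, against at most 3.31 in the controls and 4.85 in Nrf2 KO. The B cell sums were at most 9.14. The cholangiocyte marker Krt19 was at the floor in every library, although Sox9 had a mean of 168. Cholangiocyte marker sums were 392, 268 and 387 in the controls and 151 and 196 in Nrf2 KO. They were 347 and 444 in p65 KO and 350, 289 and 197 in DKO. Sox9 had 226, 191 and 244 normalized counts in the controls and 126 and 99.4 in Nrf2 KO. It had 185 and 193 in p65 KO and 157, 128 and 132 in DKO. Against control edgeR called 0 of these 5 markers in each knockout. Hepatocyte markers, led by Alb, were high in every library. In such bulk samples more cells of a type and more RNA per cell cannot be told apart, and the part of the other cells and of the liver zones in the levels of the 8 genes was not tested.

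**Figure D2:**
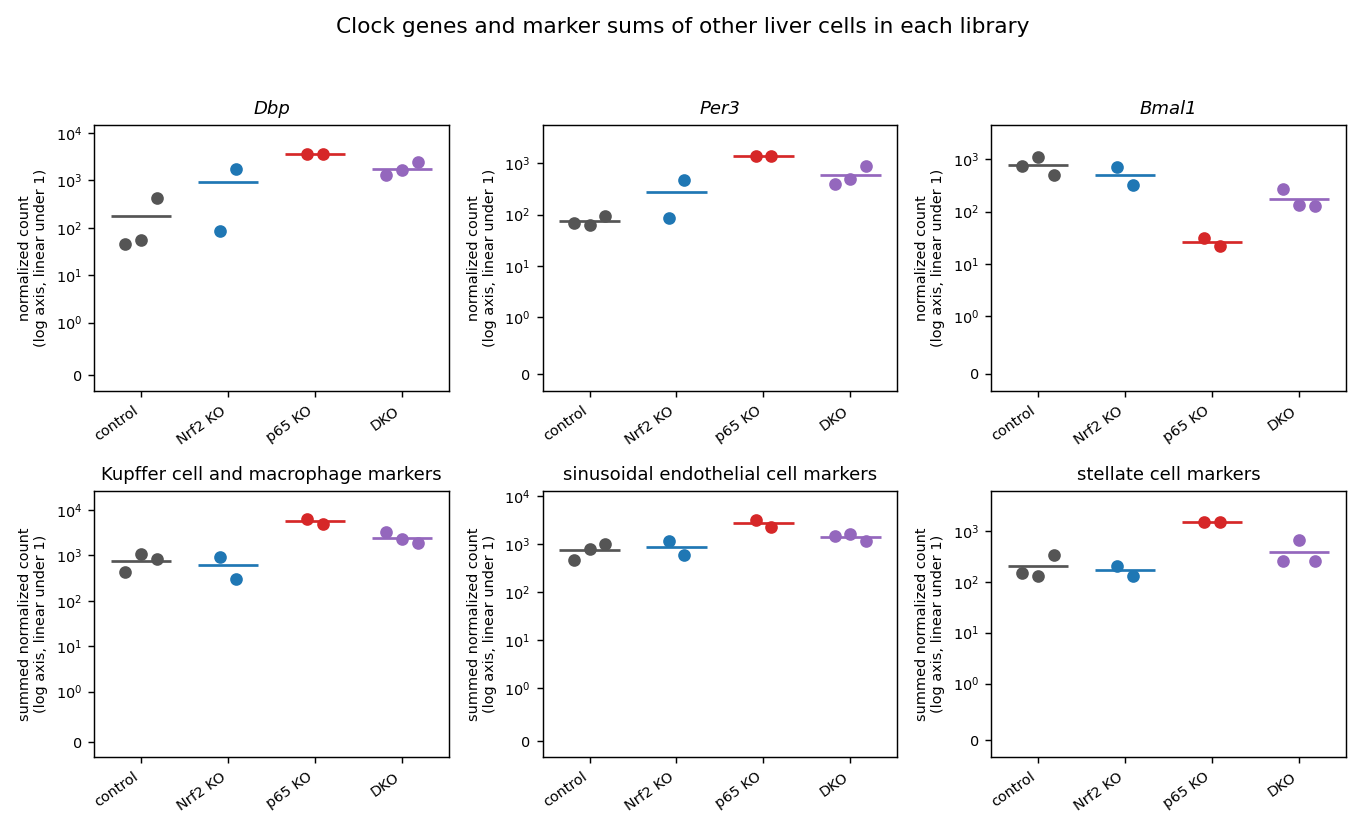
Each point is a library, grouped by genotype, with normalized counts of Dbp, Per3 and Bmal1 above and summed normalized counts of marker lists below, on axes logarithmic above 1 and linear below it, and the line is the group mean. Dbp is at 3627 and 3589 in p65 KO and at 45.3 in control 1, and the Kupffer cell marker sums are 6491 and 4814 in p65 KO.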

How the data were processed

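RNA of isolated hepatocytes from 10 mice was sequenced as poly-A stranded libraries. Per the labels and methods, the authors estimated transcript counts with Salmon 1.10.3 on GRCm39 and deposited estimated counts per gene as whole numbers. The table is named normalized, but its totals (33707165 to 49897382) and median-of-ratios factors (0.879 to 1.26) are unequal, so the values were used as counts. Tests used edgeR 4.0.16 (R 4.3.3, glmQLFit, glmQLFTest, TMM, all 10 libraries in 1 model), for genes with at least 10 summed counts (13641 of 21939), adjusting by Benjamini-Hochberg within each comparison. A gene was called when its adjusted p was 0.05 or less and its mean changed by 1 log2 unit or more. SE is the log2 fold change divided by the root of the F statistic. The 14 symbols shared by several identifiers were kept apart. Gene models were those of GENCODE M39 (GRCm39, 21926 identifiers matched), and promoter and transcript sequences from the same build.

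The members and lists were chosen with earlier results of these data known. Named genes are the 8 members, Nfe2l2, Rela, Gclc, Nqo1 and Saa3, up to 5 called genes of each list and comparison with control with the largest log2 fold change, the 3 genes most like each member whose mean was 50 normalized counts or more, and the most abundant gene of each marker list. Cyp2f2, Cyp2a12, Cyp2g1, Srxn1 and Krt19 fall outside these rules. So do Cyp1a2, Ces2a, Med1, Hnf4a, Rxra, Hsp90aa1, Tef and Hlf. All of these were named after their values were seen. Alternatives were DESeq2 1.42.0, other filters, other scalings, only the genotypes compared, the replicate number as a block, leaving out each library, a prior count of 2 in place of 0.125, limma 3.58.1 on log2(value + 1) of the deposited values, no fold threshold, paralog sums and the median transcript length.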

Additional observations from a re-analysis of the deposited data

Results flagged for a closer look

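In 5 named genes, loss of 1 factor moved every library one way where the other factor was intact and every library the opposite way where it was lost, and these differences were not tested. Nrf2 loss gave Hsd3b5 a log2 fold change of 0.26 against control and -0.87 against p65 KO. Nrf2 loss gave Mup20 -1.44 against control and 1.12 against p65 KO, and Per2 0.88 and -0.80. p65 loss gave Mup7 -0.65 against control and 1.71 against Nrf2 KO. For Cyp2f2, p65 loss gave -0.46 against control and 0.71 against Nrf2 KO, and Nrf2 loss -0.49 against control and 0.67 against p65 KO. Reads can be divided between the near-identical Mup genes. No member gene moved in this way. How many of all genes did so was not counted, so the 5 genes cannot be set against a share of all genes.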

How the results depend on the processing

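In Nrf2 KO, p65 KO and DKO against control, DKO against p65 KO, and DKO against Nrf2 KO, 75, 899, 325, 243 and 59 genes were called. DESeq2 called 135 in Nrf2 KO, 534 in DKO, 453 in DKO against p65 KO and 296 in DKO against Nrf2 KO. Limma on unscaled log2 values called 28 in Nrf2 KO and 112 in DKO against p65 KO. Without the fold threshold p65 KO, DKO and DKO against p65 KO had 2032, 743 and 561. With only the genotypes compared, DKO, DKO against p65 KO and DKO against Nrf2 KO had 215, 105 and 18. Equal library totals gave 504 in DKO against p65 KO, and no filter 112 in DKO against Nrf2 KO. Leaving out each library in turn gave 18 to 84, 325 to 954, 147 to 316, 70 to 294 and 18 to 81 calls, in the order above, a lone sample being assumed to vary like the other groups. In DKO it moved the log2 fold change of Cyp2a5 between -1.50 and -0.045 and of Nr1i3 between -1.73 and -1.35, the lowest of both without DKO 3. Summed with Cyp2a5, Cyp2a4 had 2.93 in p65 KO and 0.072 in DKO. With equal library totals the median log2 fold change of all genes was 0.18 in p65 KO and -0.27 in DKO against p65 KO, and the share of calls that rose went from 57.2% to 46.4% in DKO and from 45.7% to 17.1% in DKO against p65 KO. The cause of these differences was not tested.

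The replicate numbers only name the samples: over 13 pairs of libraries with the same number, deviations from the group means correlated between -0.232 and 0.113. With the replicate number as a block 56, 655, 237, 181 and 37 genes were called. Of 56 calls of the genes named by the rules above 25 were kept whichever library was left out, 31 were lost without some library and 0 reversed. Equal library totals lost 4 of these calls (Nfe2l2 in DKO, and Cyp3a11, Cyp4a12a and Nr0b2 in p65 KO), only the genotypes compared 6 (Abcc3 in Nrf2 KO, Slco1a4 in p65 KO, and Abcd2, Aldh1a1, Ciart and Cyp2c37 in DKO), limma 23 and the block 8, all among the 31. DESeq2, the other filters and the other scalings lost 0. Cyp2a22, Cyp2b9 and Cyp2b13 had too few counts for firm levels.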
